A study of Mus musculus with 12 samples.

Results

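The comparison covers 6 of the 12 arrays of the series. They hold RNA of the mouse line C3H10T1/2 after transfection of an siRNA form of miR-140, titled siRNA-140 (3 arrays), or an siRNA form of miR-96, titled siRNA-96 (3 arrays). The labels name no further agent, dose or time for these groups, and the control received an active microRNA form of its own, so each difference sets 1 microRNA form against the other. C3H10T1/2 is a single embryonic line with mesenchymal character that can form cartilage, bone, fat and muscle cells. Each array was placed in a high or a low expression state by 1 probe set for Vnn1, which encodes the pantetheinase vanin-1, with a threshold of 5.5 on the log2 scale. The states were thus chosen by measured values of Vnn1, which are given as a description. These values were 8.03 and 8.34 in the first and the second siRNA-140 replicate and 8.22 in the first siRNA-96 replicate, which form the high state. The low state is formed by siRNA-140 replicate 3 at 2.84 and by the second and the third siRNA-96 replicate at 2.84 and 3.04. The nearest value above the threshold was 8.03 and the nearest below it was 3.04. The state is therefore a property read from the arrays and not one the labels give. The high state holds 2 siRNA-140 arrays and 1 siRNA-96 array, and the low state holds 1 siRNA-140 array and 2 siRNA-96 arrays. Nothing in the labels says whether arrays of a group came from separate cultures, so p-values measure only the spread between these samples, which may be technical.

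A microRNA guides the Argonaute complex to messenger RNAs that pair with its seed, bases 2 to 8 counted from its 5′ end, and the bound transcripts are repressed and partly degraded. Transcripts that a transfected microRNA form represses directly would therefore be looked for among those that read lower in its own arrays. miR-140 is a cartilage microRNA encoded within Wwp2, and miR-96 belongs to the miR-183 cluster of sensory cells. Double-stranded RNA brought into a cell can also be sensed as foreign, which turns on type I interferon and, through it, a broad set of antiviral genes.

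The mature sequences are shown because the seeds decide which transcripts each form can pair with. The labels do not say which arm of a hairpin the siRNA forms carry; for miR-140 these are miR-140-5p and miR-140-3p, so the seed printed for miR-140-3p may not be that of the transfected form. Capitals mark the seed. The sequences and positions are those of RefSeq on GRCm38.p6, at chr8:107551288-107551308 on the plus strand, chr6:30169506-30169528 on the minus strand and chr6:30169465-30169486 on the minus strand, in the order printed.
mmu-miR-140-3p: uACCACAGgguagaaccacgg
mmu-miR-96-5p: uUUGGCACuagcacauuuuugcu
mmu-miR-96-3p: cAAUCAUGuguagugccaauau
The 3 seeds differ, so these molecules fall into 3 seed families. Mature microRNAs are not read by these arrays, and how much of either form reached the cells is not known.

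The state accounted for most of the variation between the 6 arrays. Among the 22521 probe sets at or above the median level, state alone took up 65.4% of the summed squares and the label alone 15.7%. Label and state are not balanced over the arrays, so these 2 shares overlap. The state was chosen from values of these same arrays and the label was not, so the share of the state is a description and no test. The label took up 9.12% once the state was in the model, and the interaction of label and state 6.15%. Arrays within a label and state together held 19.4%. The median residual SD on the log2 scale was 0.176 with the label alone and 0.134 with label and state. The closest arrays across the labels lay as near each other as arrays of 1 label. siRNA-140 replicate 3 and siRNA-96 replicate 2, both in the low state, differed by at least 2-fold at 18 of these probe sets, and siRNA-140 replicate 1 and siRNA-96 replicate 1, both in the high state, at 34. siRNA-140 replicates 1 and 2 differed that far at 31 probe sets, and siRNA-96 replicates 2 and 3 at 46. The other pairs across the labels within a state lay farther apart than these. siRNA-140 replicate 2 and siRNA-96 replicate 1 differed at 65 probe sets, and siRNA-140 replicate 3 and siRNA-96 replicate 3 at 76. Between arrays of different states the number ran from 484 to 801. siRNA-96 replicates 1 and 3 stood apart from the other 4 arrays at the array controls and at a group of probe sets of abundant genes. Some of the results that rest on them are also given without them. The mesenchymal markers had a median level of 10.18 on the log2 scale, with array means from 9.53 to 9.72. The endothelial and macrophage markers had medians of 3.77 and 3.18, where the median of all probe sets was 3.98. The epithelial list lay above that value, with a median of 4.86 and 17 of its 28 measured genes at or above the median level. Its array means split by state, with at least 4.94 on the high-state arrays and at most 4.25 on the low-state arrays.

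**Figure D1:**
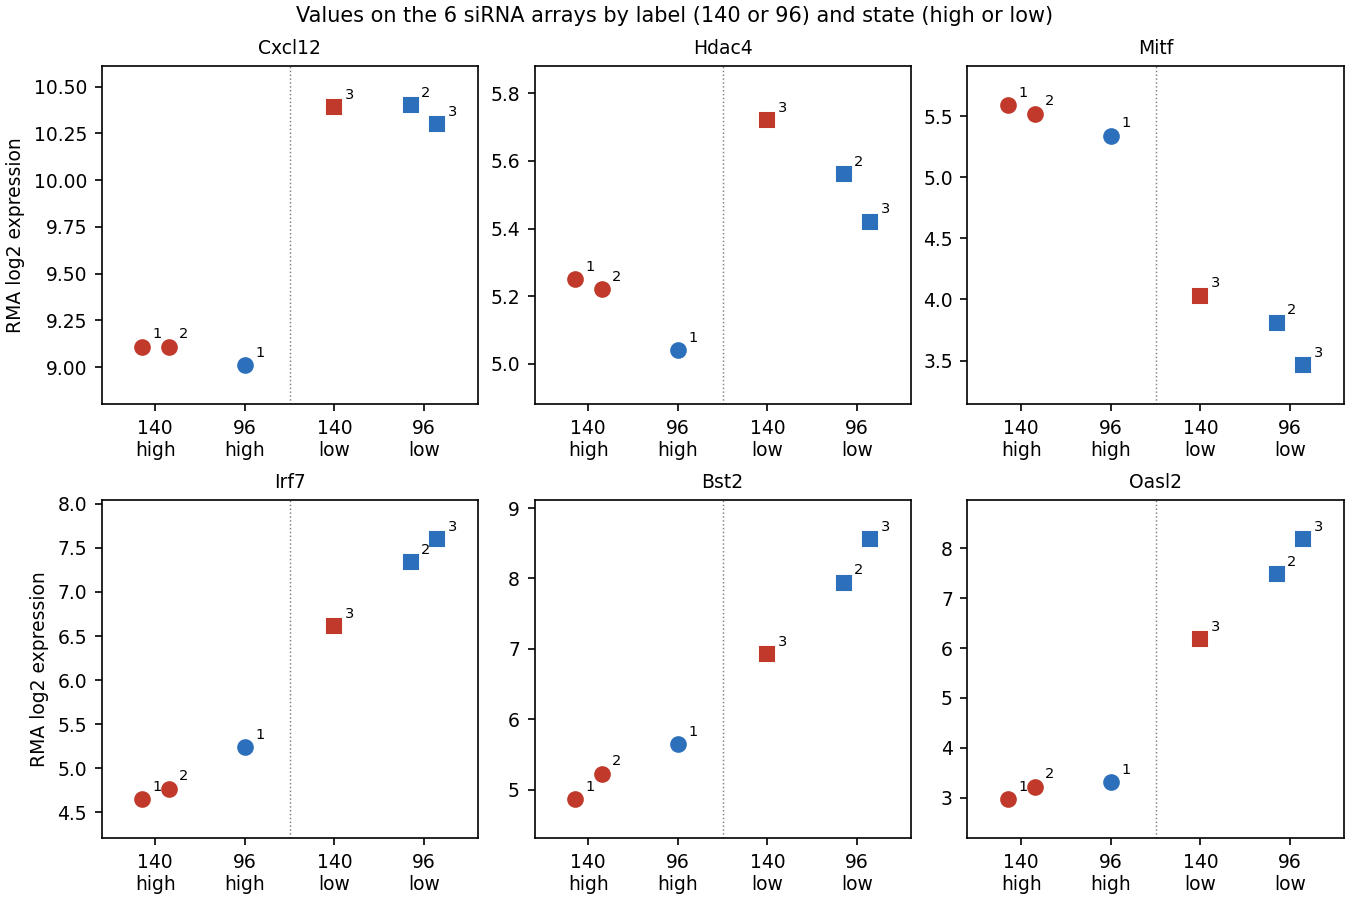
RMA log2 expression of 6 genes on the 6 arrays, 1 point an array, numbered by replicate, in red for siRNA-140 and blue for siRNA-96, with circles for the high and squares for the low state. Cxcl12 splits by state (9.01 to 9.11 against 10.30 to 10.40), while Irf7 and Bst2 read lower with siRNA-140 within each state.

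After the state was removed, no probe set passed the test between siRNA-140 and siRNA-96. Of 45037 probe sets tested with limma, 0 (0%) had an adjusted p under 0.05, with 0.996 as the lowest adjusted p. The unadjusted p was under 0.05 at 1954 (4.34%), of which 941 (2.09%) read lower with siRNA-140 and 1013 (2.25%) higher. Without the state block the count after adjustment was also 0, with 1014 (2.25%) at an unadjusted p under 0.05. The 3 arrays of a state compared alone, with the spread pooled over both states, gave 0 adjusted calls in each, 2649 (5.88%) at an unadjusted p under 0.05 in the high state and 698 (1.55%) in the low state. Here and below a difference is siRNA-140 minus siRNA-96 on the log2 scale, given as the estimate ± SE from the fit with state as a block. An unnamed count of genes takes 1 probe set a gene over 18193 genes, of which 698 (3.84%) had an unadjusted p under 0.05, 361 (1.98%) lower and 337 (1.85%) higher.

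Most differences were bounded closely. The 95% interval lay within 1.5-fold either way for 17255 of the 18193 genes (94.8%), and it left out a level 1.5-fold lower with siRNA-140 for 17722 (97.4%). No level filter was set, so these counts include dim genes, and signal near background limits what can be read of them. The median difference over genes was 0.03, and the 5th and 95th percentiles were -0.22 and 0.23. The difference within the high state and that within the low state share no array, and across the 11350 genes at or above the median level they had a Pearson correlation of 0.207 and a Spearman correlation of 0.181. They had the same sign in 58.3% of these genes, which are not independent of each other and are normalized within the same arrays. Where both differences reached 0.3, 66 of 93 genes had the same sign, 42 of them lower with siRNA-140 and 24 higher. Cracd was the 1 gene that read at least 0.5 higher in both states, and 13 genes read at least 0.5 lower in both, among them Irf7, Bst2, Upf1 and Kdelr2. Of the 13, 8 were among the probe sets that passed when siRNA-96 replicate 2 was left out, Upf1 and Kdelr2 included. At these, and at Ptcd1, Myo1h and AI463170, siRNA-96 replicates 1 and 3 stood above the other 4 arrays. Irf7 and Bst2 did not show this order. The high state has no other siRNA-96 array, so the agreement cannot be given without replicate 1.

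**Figure D2:**
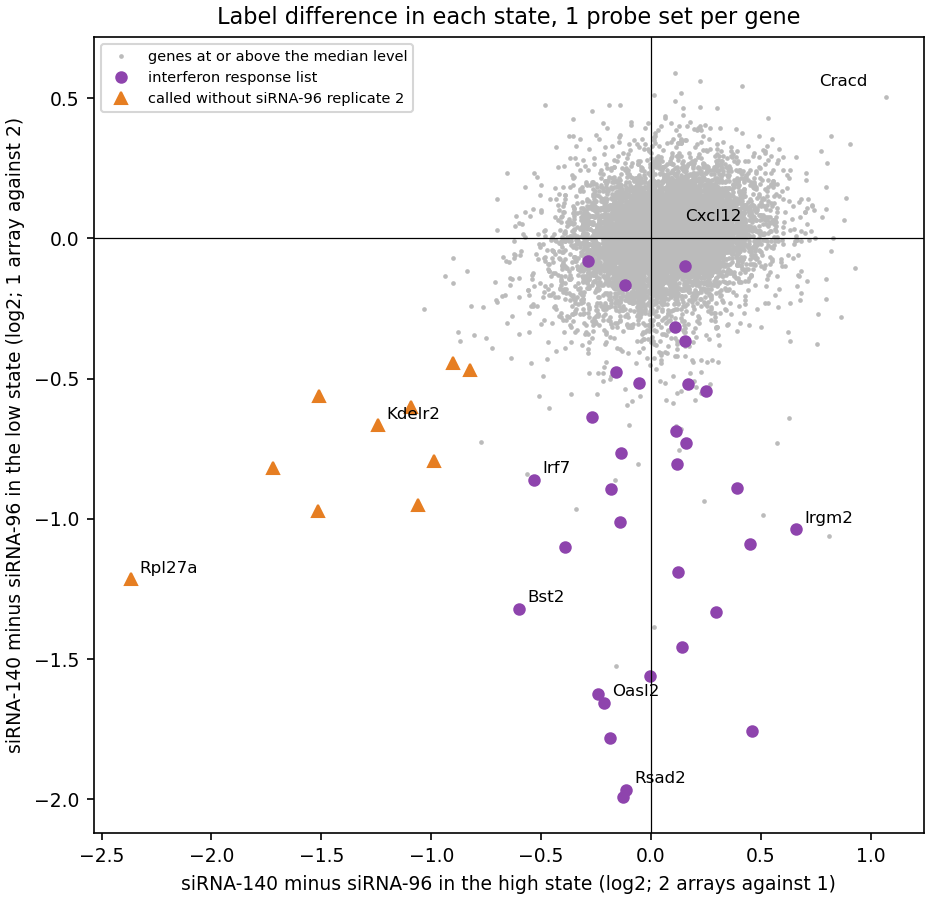
Difference between the labels in the high state (horizontal axis, log2) against that in the low state (vertical axis, log2), 1 point for each of the genes at or above the median level. Interferon genes (purple) spread downwards with low-state differences to -1.99, and orange triangles are genes called only when siRNA-96 replicate 2 was left out.

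Genes reported as targets of miR-140 lay at or slightly above the level of the control. Of 29 measured genes of a list of 30, 1 (3.45%) read lower at an unadjusted p under 0.05 and 0 read higher, against 1.98% and 1.85% of all genes (3.84% both ways). Their median difference was 0.10, against 0.03 over all genes, and 8 of the 29 lay below zero, where 41.6% of all genes did. In the high state, where siRNA-96 replicate 1 is the only control array, the median was 0.10, against 0.05 over all genes. There 6 of the 29 lay below zero, where 39.5% of all genes did. In the low state the median was 0.01 and 13 lay below zero, where 48.4% of all genes did. All 29 intervals lay within 1.5-fold either way. Without siRNA-96 replicates 1 and 3, which leaves 1 array against 1, the median was -0.02. The list mean was 7.63, 7.69 and 7.77 in siRNA-140 replicates 1 to 3 and 7.56, 7.77 and 7.77 in siRNA-96 replicates 1 to 3. The order of these means followed the state and not the label.

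Cxcl12, a chemokine that holds stem and blood cells in their niche and a reported target, followed the state. Its level was 9.11, 9.11 and 10.39 in siRNA-140 replicates 1 to 3 and 9.01, 10.40 and 10.30 in siRNA-96 replicates 1 to 3. The 3 high-state arrays read low and the 3 low-state arrays read high whatever their label. The difference was -0.37 without the block and 0.07 ± 0.11 with it, with an interval from -0.175 to 0.315 and an adjusted p of 0.996 in limma. Hdac4, a histone deacetylase that restrains cartilage cell maturation and an often cited miR-140 target, read 5.25, 5.22 and 5.72 with siRNA-140, against 5.04, 5.56 and 5.42 with siRNA-96. In each state the siRNA-140 arrays lay above the siRNA-96 arrays, by 0.19 in the high state and 0.23 in the low state. The difference was 0.21 ± 0.11, which did not pass the test, and the other 2 probe sets gave 0.19 and 0.03. Of the genes the list names for matrix and growth factor signalling, Pdgfra, the receptor of platelet-derived growth factor, differed by 0.21 ± 0.14. Igfbp5, a binding protein of insulin-like growth factors, differed by 0.16 ± 0.13. Smad3, which carries the TGF-β signal to the nucleus, differed by 0.10 ± 0.13, and Adamts5, a protease that cuts aggrecan, by 0.04 ± 0.12. Wwp2, the ubiquitin ligase gene that hosts miR-140, differed by 0.03 ± 0.13. The 1 list member at an unadjusted p under 0.05 was Septin2, a filament-forming GTPase. It read 9.22, 9.14 and 9.24 with siRNA-140, against 9.58, 9.26 and 9.59 with siRNA-96, a difference of -0.29 ± 0.13, with 0.19 at another, dimmer probe set. Its values were high in siRNA-96 replicates 1 and 3 and near the siRNA-140 level in replicate 2.

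The reported miR-96 targets would be looked for on the other side, as genes that read higher with siRNA-140. Of 26 measured genes of a list of 28, 2 (7.69%) read higher at an unadjusted p under 0.05 and 0 read lower, against 1.85% and 1.98% of all genes. Their median difference was 0.01 and 12 lay below zero. Celsr2, a cadherin of planar cell polarity, read 4.37, 4.25 and 4.40 with siRNA-140, against 3.83, 4.08 and 4.24 with siRNA-96, a difference of 0.36 ± 0.12. The siRNA-140 arrays were above those of siRNA-96 in both states, but another, dimmer probe set gave -0.09. Mitf, the transcription factor of pigment cells and osteoclasts, read 5.59, 5.52 and 4.03 with siRNA-140, against 5.34, 3.81 and 3.46 with siRNA-96. It was higher in the high state with either label and higher with siRNA-140 within each state. Its difference was 0.84 without the block and 0.31 ± 0.13 with it, and another, dimmer probe set read -0.25. Aqp5, a water channel of glands, differed by 0.51 without the block and by -0.03 ± 0.12 with it. Foxo1 and Foxo3, transcription factors of the insulin pathway, differed by 0.15 ± 0.11 and -0.18 ± 0.11.

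**Figure D3:**
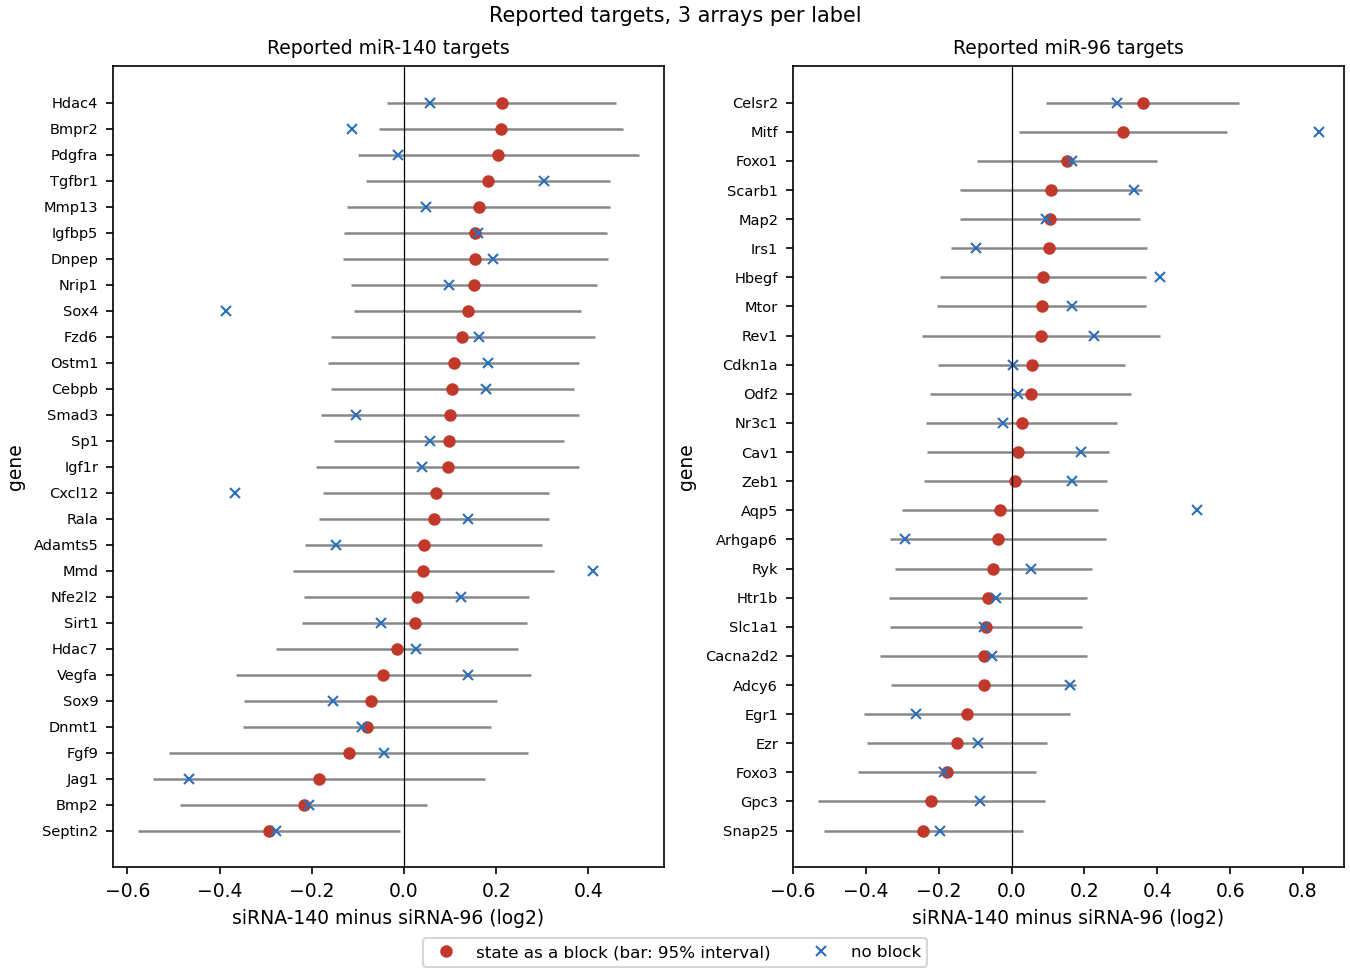
Label difference (log2, horizontal axis) of the reported targets of miR-140 (left) and miR-96 (right), with red points for the fit with state as a block, bars for its 95% intervals and blue crosses for the fit without it, 3 arrays a label. The miR-140 targets lie between -0.29 and 0.21, and Cxcl12 moves from -0.37 without the block to 0.07.

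Interferon-induced genes had the median farthest from zero among the 32 lists examined. Of 37 measured genes of a list of 41, 15 (40.5%) read lower with siRNA-140 at an unadjusted p under 0.05 and 0 read higher, against 1.98% and 1.85% of all genes, and 0 of the 37 passed after adjustment. Their median difference was -0.45 against 0.03 over all genes, and 35 lay below zero. In 11 genes (29.7%) the siRNA-140 arrays lay below the siRNA-96 arrays in both states without overlap, where 1435 of 18193 genes (7.89%) did. These counts describe the list and are no test of it.

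The interferon genes differed in the low state, where siRNA-140 is 1 array. The list mean was 4.76, 4.89 and 6.09 in siRNA-140 replicates 1 to 3 and 4.83, 6.83 and 7.20 in siRNA-96 replicates 1 to 3. All 3 high-state arrays read low, and among the low-state arrays siRNA-140 replicate 3 lay below both siRNA-96 arrays. The median difference was -0.89 in the low state, where 37 genes lay below zero with 48.4% of all genes, and -0.02 in the high state, where 21 did with 39.5% of all genes. In the low state 36 of 37 genes (97.3%) lay below both siRNA-96 arrays, with 4962 of all genes (27.3%) doing so. Oasl1 was the exception, with 3.75 between 3.78 and 3.74. In the high state 11 genes (29.7%) lay below without overlap, with 4335 of all genes (23.8%) doing so. Leaving out siRNA-140 replicate 3 leaves the high state alone, and leaving out siRNA-96 replicate 1 leaves the low state alone. The list's median difference is then by design that of the state, -0.02 and -0.89. Without siRNA-96 replicate 3 it was -0.22. Without siRNA-96 replicates 1 and 3 it was -0.68, now a low-state comparison of 1 array against 1.

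The interaction term asks whether the label difference was the same in both states. Of 45037 probe sets 0 (0%) passed after adjustment, with a smallest adjusted p of 0.76, and 1236 (2.74%) had an unadjusted p under 0.05. Of the 37 interferon genes 23 (62.2%) had an unadjusted p under 0.05, against 405 of all genes (2.23%). Some interferon genes, such as Oasl2 and Mx1, read below the median of all probe sets on every high-state array, while Irf7 and Bst2 read above it. For such dim genes there is little room for a lower reading in the high state, which limits the comparison of the states. Irgm2, a GTPase that acts on vacuoles holding pathogens, differed by 0.66 in the high state and by -1.04 in the low state, and its interaction had an adjusted p of 0.867 in limma. Gbp3, a guanylate-binding protein of the same defence, differed by 0.46 in the high state and -1.76 in the low state. Rsad2, which makes a chain-terminating nucleotide against viral polymerases, differed by -0.12 in the high state and -1.97 in the low state.

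By role, the transcription factors of the pathway differed in size. Irf7, which amplifies interferon production, had the smallest p among the interferon genes. It read 4.65, 4.77 and 6.61 in siRNA-140 replicates 1 to 3 and 5.24, 7.34 and 7.60 in siRNA-96 replicates 1 to 3. The siRNA-140 arrays read lower in both states, with differences of -0.53 in the high state and -0.86 in the low state, and the blocked difference was -0.70 ± 0.13 with an interval from -0.98 to -0.41. Stat2 and Irf9, transcription factors that act downstream of the interferon receptor, differed by -0.18 ± 0.16 and 0.03 ± 0.12. Among the sensors of foreign RNA, Ifih1 differed by -0.57 ± 0.24 and Ddx58 by -0.32 ± 0.16, and Dhx58 by -0.32 ± 0.28.

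Among the antiviral effectors, Bst2, the tetherin that holds budding virus at the membrane, read 4.87, 5.23 and 6.93 with siRNA-140, against 5.65, 7.94 and 8.56 with siRNA-96. It was lower with siRNA-140 in both states without overlap, with a difference of -0.96 ± 0.20. Trim30a, an interferon-induced ubiquitin ligase family member, read 3.78, 3.88 and 4.97 with siRNA-140, against 4.07, 6.26 and 6.93 with siRNA-96, a difference of -0.93 ± 0.26. Its other probe set gave -0.83. Oasl2, of the oligoadenylate synthetase family, read 2.97, 3.22 and 6.18 with siRNA-140, against 3.31, 7.48 and 8.19 with siRNA-96, a difference of -0.94 ± 0.28. Both lay lower in each state, with differences of -0.24 for Trim30a and -0.22 for Oasl2 in the high state and of -1.63 and -1.66 in the low state. Their high-state values lay near or below 3.98, the median of all probe sets. Signal near background limits what can be read of these high-state differences. Usp18, which removes ISG15 from proteins and dampens interferon signalling, read 3.85, 4.67 and 8.01 with siRNA-140, against 4.65, 8.92 and 9.30 with siRNA-96, a difference of -0.75 ± 0.22. Its siRNA-140 replicate 2 value of 4.67 lay just above the 4.65 of siRNA-96 replicate 1. Mx1, a GTPase that blocks influenza, read 2.38, 2.37 and 2.53 with siRNA-140, against 2.61, 3.75 and 3.74 with siRNA-96. In bulk RNA fewer responding cells and less of each transcript per cell cannot be told apart.

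**Figure D4:**
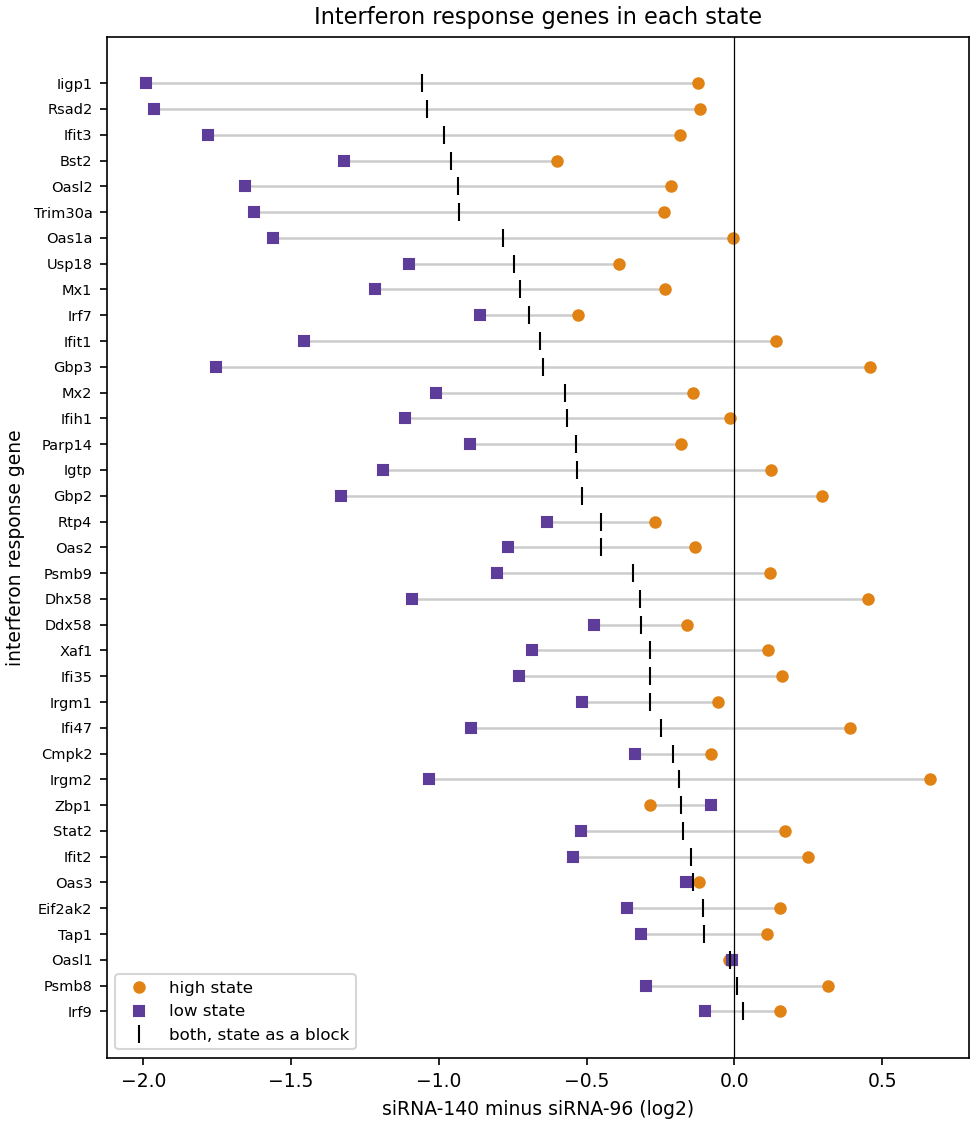
Label difference (log2, horizontal axis) of the 37 interferon genes in the high state (orange circles), the low state (purple squares) and with state as a block (black ticks). The squares lie left of zero for all 37 genes, and the circles for 21.

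Promoters of 2 of these genes are shown because they hold the motif known as the interferon-stimulated response element core, searched as GAAANNGAAA and its reverse complement TTTCNNTTTC in the 300 bases around each gene's start in RefSeq. It occurred in 3.44% of 32851 promoters, in 3.63% of the 14452 measured genes with a promoter and in 16 of the 28 interferon genes with one (57.1%). A match is a description of letters and not of a bound site. The promoter of Bst2 lies at chr8:71537423-71537722 and that of Trim30a at chr7:104446076-104446375, both on the minus strand of GRCm38.p6. Capitals mark the matches, which are 2 overlapping ones in Bst2 and 1 in Trim30a, whose promoter with a match is shown out of the 2 in the table.
Bst2: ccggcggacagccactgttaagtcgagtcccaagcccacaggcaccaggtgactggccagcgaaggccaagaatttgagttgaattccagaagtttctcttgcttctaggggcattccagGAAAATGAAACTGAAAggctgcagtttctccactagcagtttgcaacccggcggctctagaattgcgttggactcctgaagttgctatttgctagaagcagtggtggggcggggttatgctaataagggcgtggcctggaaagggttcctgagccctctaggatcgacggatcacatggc
Trim30a: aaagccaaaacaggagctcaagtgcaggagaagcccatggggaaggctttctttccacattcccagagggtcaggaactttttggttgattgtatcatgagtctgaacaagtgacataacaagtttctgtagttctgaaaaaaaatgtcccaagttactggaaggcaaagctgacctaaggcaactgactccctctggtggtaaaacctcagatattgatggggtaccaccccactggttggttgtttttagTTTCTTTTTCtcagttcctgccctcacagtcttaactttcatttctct
The promoters of Irf7 and Oasl2 held 0 matches in the same window.

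The genes of antigen presentation lay on the same side with smaller differences. Of 13 measured genes for MHC class I and its peptide supply, from a list of 17 that shares Tap1, Psmb8 and Psmb9 with the interferon list, 2 (15.4%) read lower at an unadjusted p under 0.05 and 0 higher, against 1.98% and 1.85% of all genes. The median difference was -0.17, with 0.11 in the high state and -0.41 in the low state. H2-K1, a class I heavy chain, read 5.35, 5.27 and 5.41 with siRNA-140, against 5.59, 5.73 and 6.05 with siRNA-96, a difference of -0.38 ± 0.13. Tap2, a subunit of the peptide transporter, read 4.50, 4.27 and 4.66 with siRNA-140, against 4.75, 4.86 and 5.09 with siRNA-96, a difference of -0.34 ± 0.13. At these probe sets the siRNA-140 arrays lay below the siRNA-96 arrays in each state. The other 3 probe sets of H2-K1 differed by -0.11, -0.06 and -0.24 and overlapped in at least 1 state. Cxcl10, an interferon-induced chemokine from the list of inflammatory genes, read 3.50, 3.08 and 4.17 with siRNA-140, against 3.45, 5.52 and 5.87 with siRNA-96. Its difference was -0.16 in the high state and -1.53 in the low state.

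The named genes with the smallest p that did not overlap in either state are given next, 10 each way, and none passed the test. Symbols that are clone or accession names, such as 1810014B01Rik and AI463170, were passed over. Of the 10 lower with siRNA-140, Irf7, Bst2, Trim30a and Oasl2 were on the interferon list. Ly6e, a membrane-anchored protein that interferon also induces, differed by -0.65 ± 0.18. Gsc, the goosecoid homeobox factor, read 3.91, 4.16 and 4.31 with siRNA-140, against 4.58, 4.79 and 4.72 with siRNA-96, so all siRNA-140 arrays lay below all siRNA-96 arrays, by a difference of -0.50 ± 0.12. Nipsnap2, a mitochondrial protein, differed by -0.61 ± 0.16, Ankrd2, a muscle ankyrin-repeat protein, by -0.39 ± 0.12, and Hspa12a, a distant member of the HSP70 family, by -0.41 ± 0.13. In these 3 of the 10 genes siRNA-96 replicate 1 was the highest of the 6 arrays, at 7.53, 5.53 and 5.19. The other probe set of Nipsnap2 differed by 0.15, and the other 3 of Hspa12a by 0.13, 0.00 and -0.12. Upf1, the helicase of nonsense-mediated decay, read 5.80, 5.68 and 5.86 with siRNA-140, against 6.83, 5.94 and 6.98 with siRNA-96. Its siRNA-96 values were high in replicates 1 and 3 and close to siRNA-140 in replicate 2.

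Of the 10 higher with siRNA-140, 0 were interferon genes, and differences ran from 0.40 to 0.79. Cracd, an actin regulator, read 3.97, 4.45 and 4.89 with siRNA-140, against 3.14, 4.72 and 4.05 with siRNA-96, a difference of 0.79 ± 0.20. Ets1, a transcription factor of growth and invasion, read 7.57, 7.71 and 8.10 with siRNA-140, against 7.12, 7.89 and 7.69 with siRNA-96, a difference of 0.42 ± 0.12. Vav2, a guanine nucleotide exchange factor, differed by 0.54 ± 0.15. Abca8b, a lipid transporter family member, differed by 0.43 ± 0.12 and Pla2g4e, a phospholipase, by 0.40 ± 0.11. Sipa1l2, Dock4 and Rab40b, regulators or members of small GTPase systems, differed by 0.44, 0.42 and 0.54, and the zinc finger genes Zfp748 and Hivep1 by 0.47 and 0.48. In 9 of the 10 genes siRNA-96 replicate 1 was the lowest of the 6 arrays, and in all 10 the difference was larger in the high state, where it is the control array. Of all genes, 39.6% lay higher with siRNA-140 without overlap in the high state, 26.5% in the low state and 11.3% in both. Other probe sets of these genes read nearer 0. They differed by 0.03, 0.00, 0.20 and -0.07 for Cracd, by 0.10 and 0.16 for Vav2 and by 0.27, -0.03 and -0.12 for Ets1. Those of Dock4 ran from -0.08 to 0.19, and that of Rab40b was -0.14.

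Outside these lists few members stood apart. In the 28 lists other than those of microRNA targets, interferon and antigen presentation the median difference ran from -0.04 to 0.08, and at most 3 members of a list had an unadjusted p under 0.05. In the chondrogenic list of 21 measured genes, Matn3, a cartilage matrix protein, read 3.59, 4.13 and 4.21 with siRNA-140, against 3.40, 3.71 and 3.55 with siRNA-96, a difference of 0.52 ± 0.15, and its other probe set gave 0.31. Col9a1, a cartilage collagen chain, differed by -0.39 ± 0.14, and by -0.37 at its other probe set. In the TGF-β and BMP list of 39 genes, the ligand Tgfb2 differed by 0.34 ± 0.14 and the receptors Acvr1 and Acvr2b by 0.28 ± 0.13 and -0.28 ± 0.12. Their other probe sets differed by 0.01, 0.22 and 0.20 for Tgfb2, by 0.23 and -0.07 for Acvr1 and by -0.15 and 0.25 for Acvr2b. Among osteogenic and adipogenic genes, Phex, an endopeptidase of phosphate balance, differed by 0.48 ± 0.16 (0.10 at its other probe set), and Zfp423, a preadipocyte factor, by 0.41 ± 0.14. Tnfrsf10b, a death receptor of the p53 list, differed by 0.39 ± 0.12. It read 4.89, 4.99 and 4.82 with siRNA-140, against 4.50, 4.59 and 4.39 with siRNA-96, so no siRNA-140 array overlapped a siRNA-96 array, and its other probe set gave 0.29. Insig1, a brake on cholesterol synthesis, differed by -0.64 ± 0.22, with siRNA-96 replicate 1 the highest array at 8.37. The epithelial list, which holds genes that follow the state, had a median difference of -0.01, and 14 of its 28 measured genes lay below zero. At an unadjusted p under 0.05 in limma 3 (10.7%) read higher and 0 lower, against 1.85% and 1.98% of all genes. These were Pkp1, a desmosome protein, at 0.31 ± 0.12, Rhpn2 at 0.30 ± 0.13 (0.08 at its other probe set) and Dynap at 0.29 ± 0.13. DNA replication (40 measured), mitosis (39), Rab GTPases (33) and microRNA machinery (19) had 0 members at an unadjusted p under 0.05. Postn, a matrix protein that follows the state, read 6.61, 6.17 and 10.01 with siRNA-140, against 6.23, 10.06 and 10.16 with siRNA-96. Its difference was -1.22 without the block and 0.03 ± 0.14 with it.

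Some of the largest differences rested on siRNA-96 replicates 1 and 3. Kdelr2, a retrieval receptor of the secretory pathway, read 10.50, 10.22 and 10.26 with siRNA-140, against 11.60, 10.22 and 11.63 with siRNA-96, a difference of -0.95 ± 0.29, and its other probe set gave 0.01. Myh9, a nonmuscle myosin heavy chain, differed by -0.62 ± 0.22, and its other probe sets gave -0.68, 0.12, 0.17 and 0.16. Without these 2 arrays the differences were 0.04 for Kdelr2, 0.11 for Myh9, -0.08 for Upf1, -0.02 for Septin2 and -0.07 for Insig1. Each of these is then 1 array against 1. When siRNA-96 replicate 2 was left out, 33 probe sets (0.0733%) passed at an adjusted p under 0.05, all lower with siRNA-140, and Upf1 and Kdelr2 were among them at -1.10 and -1.30 with adjusted p of 0.0075 and 0.0047 in limma. In all 33 both siRNA-96 replicates 1 and 3 lay above the other 4 arrays, by a median gap of 1.29 and a range from 0.88 to 3.23. For 21 of the 25 genes there were 44 other probe sets at or above the median level, and their median gap was -0.05, with 3 at 0.5 or more. A dim probe set of Actb, the actin gene, read 8.56, 7.70 and 7.91 with siRNA-140, against 11.44, 7.83 and 11.03 with siRNA-96. Its bright probe set read between 13.76 and 13.89 on all 6 arrays.

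The same arrays stood apart at controls outside the tested genes. The mean of the 18S ribosomal RNA control probe sets was 5.62, 6.73 and 5.68 with siRNA-140, against 10.47, 5.40 and 7.86 with siRNA-96. The hybridisation controls, spiked in after labelling, averaged 9.33, 8.83 and 8.99 with siRNA-140, against 10.7, 8.82 and 9.85 with siRNA-96. siRNA-96 replicates 1 and 3 were highest at both. The difference between 3′ and 5′ actin probe sets lay between 0.16 and 0.36 on all arrays. With the 18S signal beside the state in the fit, the difference shrank by over 1.5 times in 3 of the 10 named genes lower with siRNA-140 and in 6 of the 10 higher, and all 20 kept their sign. These genes were chosen by p and lack of overlap on the same arrays, so the kept signs are no separate support. Those of Upf1, Nipsnap2 and Hspa12a were then -0.22, -0.17 and -0.19. Those of Cracd, Vav2, Rab40b and Hivep1 were 0.37, 0.24, 0.11 and 0.12. Those of Irf7 and Bst2 were -0.69 and -0.90. Without siRNA-96 replicates 1 and 3 the label difference is siRNA-140 replicate 3 minus siRNA-96 replicate 2, 1 array against 1. The difference then shrank that far in 3 and 7 genes, and Irf7 and Bst2 differed by -0.73 and -1.01. Signs could not change there, because the 20 genes were chosen for no overlap in either state.

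**Figure D5:**
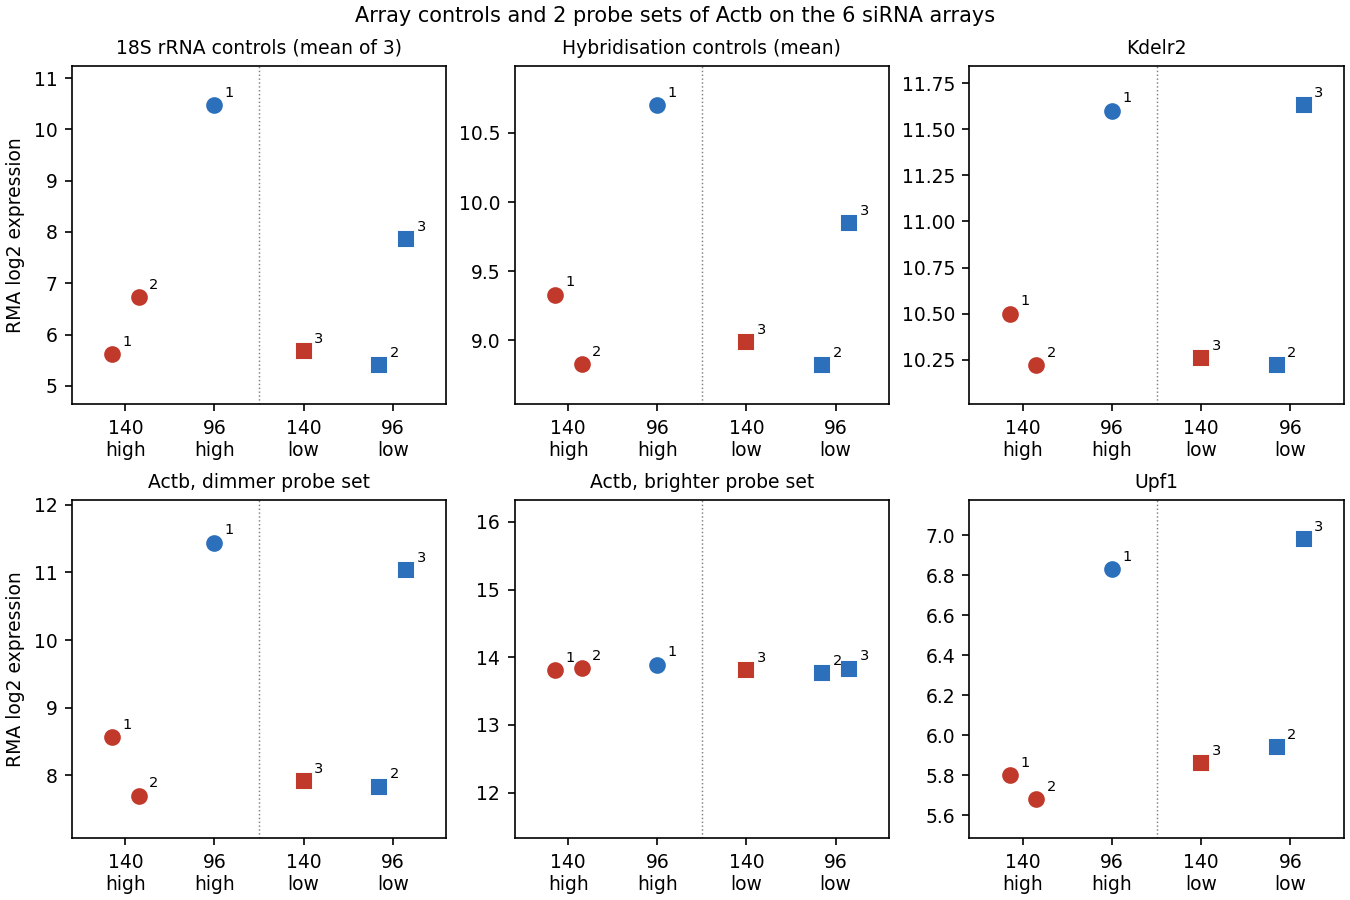
RMA log2 values of the 18S and hybridisation controls, Kdelr2, Upf1 and a pair of Actb probe sets on the 6 arrays, 1 point an array, numbered by replicate, with red for siRNA-140, blue for siRNA-96, circles for the high and squares for the low state. siRNA-96 replicates 1 and 3 read highest in each panel except that of the brighter Actb probe set, where all arrays lie between 13.76 and 13.89.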

How the data were processed

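RNA of 6 arrays (RNeasy extraction, biotin labelling, per the labels' protocols) was read on an Affymetrix mouse array. The deposited log2 values were made by the authors with RMA, per the submitters' processing notes; the probe set definitions, scan dates and number of arrays normalized together are not given in the sources used here. Of 45101 probe sets, 64 controls were left out and no level filter was set. Symbols came from the platform annotation: 34945 probe sets had 1 symbol, 932 several and 9160 none. A gene was read from its brightest probe set, which gave 18193 genes; promoters and microRNAs matched RefSeq by name.

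limma 3.58.1 in R 4.3.3 fitted label plus state, and separately the 4 label-by-state means, with 3 residual and 8.56 prior degrees of freedom in the former. Calls used Benjamini-Hochberg over 45037 probe sets, with no sample weights. The fit was tested on simulated data. The number of arrays limits the precision. The members, the states and the gene lists, written from general knowledge, were chosen with earlier results of these data known. Named genes were the 10 each way with the smallest p, a mean at or above the median and no overlap in either state, passing over clone and accession names, up to 3 members of each list described by p, and a fixed set (Cxcl12, Hdac4, Smad3, Igfbp5, Adamts5, Pdgfra, Wwp2, Vnn1, Postn, Usp18, Mitf, Aqp5). Further members named for their role (Foxo1, Foxo3, Stat2, Irf9, Ifih1, Ddx58, Dhx58, Mx1, Oasl1 and interaction examples Irgm2, Gbp3, Rsad2) and Actb were picked after their values were seen. Alternatives changed the block, covariates, normalization, level filter, variance model, arrays and threshold.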

Additional observations from a re-analysis of the deposited data

How the results depend on the processing

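The count of 0 probe sets past the adjusted threshold held under every planned and added setting except 1 array left out: over the 6 leave-one-out fits it ran from 0 to 33, and 33 came without siRNA-96 replicate 2. At an unadjusted threshold it was 1954, and for the interaction 1236. With the state and replicate number together as a block, and with the replicate block without state, it was 0. Same-numbered arrays deviated from their group means with correlations of 0.572, -0.402 and 0.629 for numbers 1, 2 and 3, so the numbers were not taken as pairs.

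The named differences below changed sign, and the cause was not tested. Without the state block, and identically with the replicate block without state, the values were Adamts5 -0.147, Aqp5 0.51, Cxcl12 -0.367, Pdgfra -0.013, Postn -1.22, Smad3 -0.103, Tgfb2 -0.397 and Wwp2 -0.067. In the low state alone they were Adamts5 -0.055, Aqp5 0.14, Pdgfra -0.025, Postn -0.1, Smad3 -0.105 and Wwp2 -0.12. With the 18S signal beside the state they were Adamts5 -0.029, Aqp5 0.117, Igfbp5 -0.079, Pdgfra -0.114, Postn -0.116, Smad3 -0.006 and Wwp2 -0.121. After a further quantile normalization they were Postn -0.018 and Wwp2 -0.003.

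The last 3 alternatives were chosen after seeing the data. Of these, leaving out siRNA-96 replicates 1 and 3 leaves 1 array against 1 for the label difference. With the hybridisation control signal beside the state the values were Adamts5 -0.075, Aqp5 0.057, Myh9 0.00, Pdgfra -0.051, Smad3 -0.024 and Wwp2 -0.18. Without siRNA-96 replicates 1 and 3 they were Adamts5 -0.08, Aqp5 0.13, Cxcl12 -0.01, Igfbp5 -0.08, Kdelr2 0.04, Myh9 0.11, Pdgfra -0.16, Postn -0.05, Smad3 -0.06, Tgfb2 -0.03 and Wwp2 -0.2. With the first principal component, computed without interferon and MHC genes, in place of state the value was Postn -0.041. With 1 array left out at a time, Adamts5 ran from -0.055 to 0.14, Aqp5 from -0.205 to 0.14, Pdgfra from -0.025 to 0.435, Postn from -0.1 to 0.16, Smad3 from -0.105 to 0.305 and Wwp2 from -0.12 to 0.185. The ends of these ranges are the differences within each state, which remain when the only array of a label in the other state is left out. The interferon median was -0.22 without siRNA-96 replicate 3, -0.56 with the 18S signal, -0.60 with the hybridisation control signal, -0.68 without siRNA-96 replicates 1 and 3 and -0.47 with that principal component.

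Each state holds 1 array of 1 label, and 3 residual degrees of freedom remain. Signal near background limits what can be read of the dim genes.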
